A study of Mus musculus with 20 samples.

Results

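The peaks described here are those that an antibody to CTCF gave, without auxin, in mouse embryonic stem cells with and without a functional Maz gene. They were taken by antibody and condition from the sample labels, and comprise 26394 peaks of the WT list and 26053 of the ΔMAZ list, 52447 of the 136043 peaks in the 12 peak lists of the series. A peak was counted as shared when it overlapped a peak of the other list by at least 1 bp, and was otherwise WT-only or ΔMAZ-only. Both groups were E14 cells, an established embryonic stem cell line, grown with LIF and the 2 inhibitors of 2i medium, and carried a degron on CTCF, through which auxin makes the cell destroy the protein. WT is the parental degron line, so the degron allele is present on both sides, and ΔMAZ is the knockout clone B2 made in it, which is 1 clone. Each side had 1 peak list, so single libraries are compared throughout, without p-values. A further CTCF library of each line was not analysed here. The 95% intervals of shares are Wilson intervals and cover counting error only, not differences between libraries or clones. Those of medians come from order statistics and reflect the spread between sites.

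CTCF is a zinc finger protein that binds a long, well conserved DNA motif and halts cohesin, the ring complex that extrudes chromatin loops, so that loop anchors and domain boundaries gather at its sites. RAD21 is the cohesin subunit that closes the ring and serves as the mark of cohesin in ChIP-seq. MAZ is a zinc finger protein that binds G-rich sequence, often at promoters, and is known as an insulation factor at Hox clusters. The comparison of WT with ΔMAZ asks whether CTCF stays at its sites when MAZ is absent.

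The strongest list-specific peaks are shown, since they are the clearest calls made in a single line. They are given as the summit with 50 bp on either side in build mm10. Capitals mark the 14-letter core of the CTCF motif where it matched with at most 2 mismatches, and such windows are printed on the strand of the match. A pair of shared sites, those with the lowest and the highest ratio of ΔMAZ to WT, and an exact match at Sox2 are given beside them. These last windows were picked after their values were seen.
WT-only, nearest coding gene Spdl1, chr11:34843609-34843709, plus strand: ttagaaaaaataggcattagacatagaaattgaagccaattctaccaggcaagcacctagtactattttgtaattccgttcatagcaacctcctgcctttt
WT-only, near Ensa, chr3:95633035-95633135, plus strand: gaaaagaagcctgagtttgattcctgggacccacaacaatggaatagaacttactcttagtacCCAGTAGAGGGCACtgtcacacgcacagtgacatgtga
WT-only, Gm35549, chr9:122837911-122838011, minus strand: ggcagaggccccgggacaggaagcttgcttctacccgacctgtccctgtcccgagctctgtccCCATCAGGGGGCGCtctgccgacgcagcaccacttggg
WT-only, Slc6a15 intron, chr10:103402367-103402467, minus strand: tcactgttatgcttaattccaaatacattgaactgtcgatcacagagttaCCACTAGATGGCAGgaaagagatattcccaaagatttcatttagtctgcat
ΔMAZ-only, Chst11 intron, chr10:83182764-83182864, plus strand: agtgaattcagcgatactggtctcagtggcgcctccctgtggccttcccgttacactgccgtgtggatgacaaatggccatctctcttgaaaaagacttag
ΔMAZ-only, Gm48134, chr14:42543592-42543692, plus strand: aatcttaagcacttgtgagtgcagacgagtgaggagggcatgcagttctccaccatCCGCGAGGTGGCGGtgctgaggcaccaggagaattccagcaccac
ΔMAZ-only, near Wee1, chr7:110163210-110163310, plus strand: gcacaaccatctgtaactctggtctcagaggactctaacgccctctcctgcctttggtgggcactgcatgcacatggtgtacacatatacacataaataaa
Shared and lower in ΔMAZ, Gm20388 intron, chr8:120970489-120970589, plus strand: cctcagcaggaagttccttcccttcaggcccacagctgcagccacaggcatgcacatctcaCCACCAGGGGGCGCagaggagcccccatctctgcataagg
Shared and higher in ΔMAZ, Gm14616 intron, chr2:174859754-174859854, minus strand: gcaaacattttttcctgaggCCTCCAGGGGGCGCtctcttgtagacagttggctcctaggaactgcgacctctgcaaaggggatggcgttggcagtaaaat
Shared, Sox2, chr3:34647832-34647932, plus strand: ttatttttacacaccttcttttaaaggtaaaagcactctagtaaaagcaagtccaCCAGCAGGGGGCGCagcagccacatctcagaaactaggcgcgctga
Of the 4 WT-only windows 3 held the core, the Ensa and Slc6a15 windows without any mismatch. The Gm48134 window held it with 2 mismatches. Over the 10 strongest peaks of each class, 7 held it on either side. The window nearest Spdl1 had 5 mismatches at its best alignment and the Chst11 and Wee1 windows had 3. The match at Gm20388, where CTCF was lower in ΔMAZ, and the match at Sox2, where it was not, were both exact.

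Most CTCF sites were called in both lines. Of the WT peaks, 85.5% (95% interval 85.1 to 86.0) overlapped a ΔMAZ peak and 3817 peaks, 14.5%, did not. Of the ΔMAZ peaks, 86.7% (86.3 to 87.1) overlapped a WT peak and 3463, or 13.3%, did not. When lists of equal length were compared, the shares were 86.2% and 86.3%. Overlaps were close in position, since the median distance between summits was 18 bp and 89.8% of the shared WT peaks had a ΔMAZ summit within 50 bp. At the edge of the rule, the smallest overlap was 9 bp and 20 of 22624 overlapping pairs shared fewer than 50 bp, while 125 WT-only and 195 ΔMAZ-only peaks had a peak of the other list within 500 bp.

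Among strong peaks no site was specific to a list. The peaks of each list were ranked by fold enrichment, the read pileup at the summit over the local background, and cut into 5 equal strength groups. In the strongest group 5279 of 5279 WT peaks were called in ΔMAZ and 5211 of 5211 ΔMAZ peaks were called in WT, and a count of 0, taken as 3 counts over the total, allows a share of uncalled peaks of up to 0.0568% and 0.0576%. In the next group 99.6% (99.4 to 99.8) of WT and 99.8% (99.6 to 99.9) of ΔMAZ peaks were called, leaving 19 WT-only and 10 ΔMAZ-only peaks. The share was 96.6% and 97.9% in the middle group, 80.0% and 84.4% in the second weakest, and 51.5% (50.1 to 52.8) and 51.4% (50.1 to 52.8) in the weakest. In both directions the share was thus lower the weaker the peaks were. In the second weakest and middle groups it was lower for WT than for ΔMAZ peaks, with intervals apart. Above the strongest WT-only peak stood 6602 WT peaks, all of them shared, and 7305 ΔMAZ peaks stood above the strongest ΔMAZ-only peak.

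**Figure D1:**
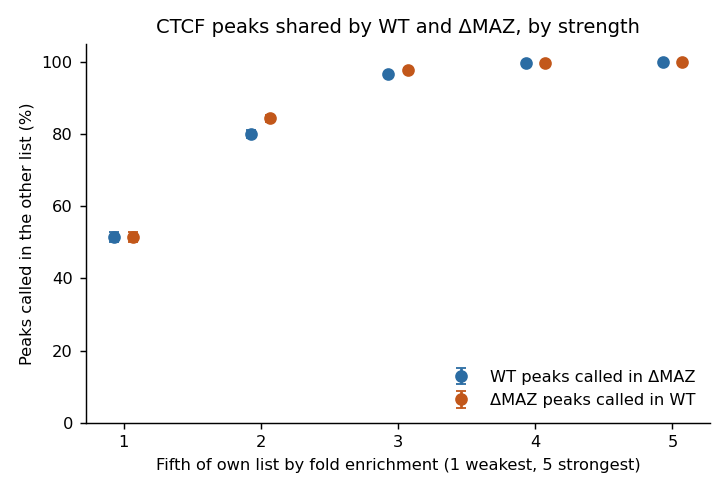
Share of CTCF peaks called in the other list (y axis, percent) over 5 equal groups of the own list by fold enrichment (x axis), with WT peaks in blue, ΔMAZ peaks in orange and Wilson 95% intervals as bars. Both series start at 51.5% and 51.4% and climb to 100%.

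The list-specific peaks were weak. The median fold enrichment was 6.69 (quartiles 5.92 to 8.09) for WT-only against 14.9 (9.99 to 21.6) for shared peaks of the WT list. It was 5.54 (4.85 to 6.92) for ΔMAZ-only against 13.8 (9.002 to 21.4) for shared peaks of the ΔMAZ list. As these classes were set by what passed the calling limit, this is a description of them and not a test. In overlapping fragments at the summit, the median pileup was 10 for WT-only, 23 for shared WT, 7 for ΔMAZ-only and 21 for shared ΔMAZ peaks. Peaks of the ΔMAZ list were accepted down to a pileup of 4 at its lowest background and those of the WT list down to 5, so a median list-specific site lay a few fragments from the limit. Depth was similar, and at shared sites the pileup of WT was 1.10 times that of ΔMAZ at the median.

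**Figure D2:**
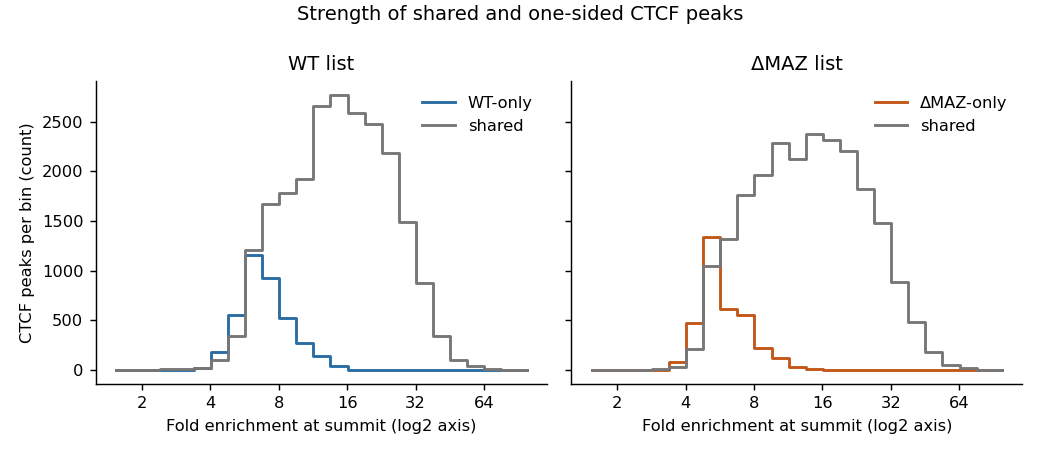
Number of CTCF peaks per bin (y axis) over fold enrichment at the summit (x axis, log2 scale), for the WT list at left and the ΔMAZ list at right, with shared peaks in grey and list-specific peaks in colour. The list-specific peaks sit at the weak end, with medians of 6.69 and 5.54 against 14.9 and 13.8 for shared peaks.

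Some list-specific sites were nonetheless of middling strength, and the 10 highest of each list are named here. The 10 WT-only peaks had a fold enrichment of 15.98 to 19.98 and a pileup of 23 to 31. Highest was a peak at chr11:34843512-34843794, intergenic and 10018 bp from the start of Spdl1, which encodes the kinetochore adaptor spindly. It had a pileup of 29 in WT, and no ΔMAZ peak lay within 500 bp. RAD21 was called there in both lines, with a pileup of 17 in WT and 13 in ΔMAZ. A peak at chr3:95632937-95633337, 8065 bp from Ensa, a regulator of a phosphatase in mitosis, had a CTCF pileup of 31 and RAD21 pileups of 25 and 21. In the intron of the amino acid transporter gene Slc6a15, a peak at chr10:103402290-103402528 had a CTCF pileup of 26 and RAD21 pileups of 19 and 15. RAD21 was thus present in both lines at these sites although CTCF was called in WT alone. The other sites lay in Gm35549, Hmgxb4, Kif21a and Afg3l2 and nearest to Ankrd1, Rap1b and Rtn4. Of the 10 sites, 7 held the CTCF core, 5 had RAD21 in both lines, 1 had it in ΔMAZ alone, 4 had none, and 0 had a TSS within 1 kb.

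The 10 ΔMAZ-only peaks had a fold enrichment of 15.2 to 18.7 and a pileup of 21 to 27. In an intron of Chst11, which encodes a chondroitin sulfotransferase, a peak at chr10:83182674-83182949 had a pileup of 26, and RAD21 was called there in ΔMAZ with a pileup of 25 and not in WT. At chr7:110163119-110163418, whose nearest coding gene is the mitotic inhibitor kinase gene Wee1 at 41214 bp, CTCF had a pileup of 27 and RAD21 had 20 in WT and 24 in ΔMAZ. At 114894 bp from Bmp7, which encodes a secreted morphogen, chr2:172825298-172825540 had a CTCF pileup of 21 and RAD21 pileups of 28 and 57. Cohesin was called in WT at both of these last sites although CTCF was not. A further peak covered an exon of the noncoding gene Gm48134, and 5 others had Selenok, Egfem1, Clec3b, Myh15 and Ift22 as nearest coding genes. As on the WT side, 7 of the 10 held the CTCF core and 5 had RAD21 in both lines, with RAD21 in ΔMAZ alone at 2 and at neither at 3.

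Cohesin was less often called at list-specific CTCF sites than at shared ones. RAD21 of WT was called at 24.9% (23.5 to 26.3) of WT-only, 73.4% (72.8 to 73.9) of shared and 18.6% (17.4 to 19.96) of ΔMAZ-only peaks. RAD21 of ΔMAZ was called at 18.7% (17.5 to 20.001), 74.3% (73.7 to 74.8) and 17.8% (16.6 to 19.1). The gap held within strength groups. In the weakest group of the WT list, RAD21 of WT was called at 19.1% of WT-only and 40.7% of shared peaks, and in the middle group at 48.9% of 182 and 73.4% of 5097. In the weakest group of the ΔMAZ list, RAD21 of ΔMAZ was called at 11.9% of ΔMAZ-only and 36.1% of shared peaks. Limited to a −log10 q of 5 or more, the RAD21 shares of WT and of ΔMAZ were 28.3% and 28.4% at ΔMAZ-only peaks and 27.1% and 20.5% at WT-only peaks.

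**Figure D3:**
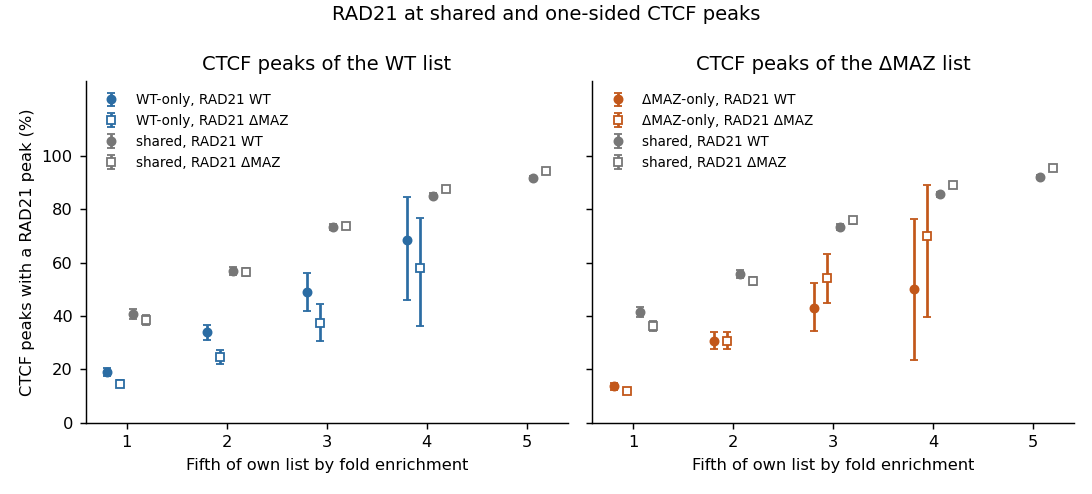
Share of CTCF peaks that overlap a RAD21 peak (y axis, percent) by strength group (x axis), for the WT list at left and the ΔMAZ list at right; filled circles are RAD21 of WT, open squares RAD21 of ΔMAZ, grey is shared and colour list-specific, with Wilson 95% intervals. In the weakest group of the WT list the list-specific shares are 19.1% and 14.7% and the shared ones 40.7% and 38.5%.

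At WT-only CTCF sites RAD21 was also called less often in ΔMAZ than in WT. By strength, 14.7%, 24.6% and 37.4% of WT-only sites in the 3 weaker groups had RAD21 in ΔMAZ where 19.1%, 33.8% and 48.9% had it in WT. The shared sites of the same groups differed less, with 38.5%, 56.3% and 73.6% in ΔMAZ and 40.7%, 56.8% and 73.4% in WT. The gap is not particular to WT-only sites in the weakest group, since weak shared peaks of the ΔMAZ list had RAD21 at 36.1% in ΔMAZ and 41.5% in WT. ΔMAZ-only peaks of the 3 weaker groups had it at 11.9%, 30.6% and 54.1% in ΔMAZ and at 13.6%, 30.6% and 43.1% in WT. Of the 949 WT-only sites with RAD21 in WT 56.0% had it in ΔMAZ, and of the 715 with RAD21 in ΔMAZ 74.3% had it in WT. As each share starts from sites called on 1 side, they describe the overlap and no change. The RAD21 lists held 20371 and 20872 peaks, and RAD21 pileups of WT were 0.875 times those of ΔMAZ at the median of their shared sites.

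The level of RAD21 was lower in ΔMAZ at WT-only CTCF sites, and at ΔMAZ-only sites it was not higher. For each RAD21 site called in both lines, the log2 ratio of fold enrichment, ΔMAZ over WT, was centred on its median over 16955 sites. At 530 WT-only CTCF sites the median was −0.17 (95% interval of the median −0.22 to −0.14), and 68.5% of them were below 0. Shared CTCF sites had a median of 0.01, ΔMAZ-only sites one of −0.09 (−0.15 to −0.05). Since weak shared sites were also below 0, like strength was compared. WT-only sites had medians of −0.14, −0.17 and −0.24 in the 3 weaker groups, and shared sites of the WT list −0.10, −0.08 and −0.04. ΔMAZ-only sites had −0.16, −0.08 and −0.02, and shared sites of the ΔMAZ list −0.17, −0.11 and −0.06. The WT-only medians were below those of shared sites of like strength. Their intervals overlapped in the weakest group and did not in the second weakest group (−0.28 to −0.13 against −0.10 to −0.06) and in the middle group (−0.40 to −0.08 against −0.06 to −0.02). For ΔMAZ-only sites the intervals overlapped those of shared sites in all 3 groups.

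Few CTCF sites carried MAZ, and WT-only sites carried it less often than shared ones. A MAZ peak of WT overlapped 36 WT-only peaks, 0.943% (0.682 to 1.303), 1.97% (1.80 to 2.16) of shared WT peaks and 1.10% (0.801 to 1.502) of ΔMAZ-only peaks. The MAZ lists themselves held 6265 peaks in WT and 33 in ΔMAZ, which checks the label of the knockout. Asked the other way, 92.5% (89.8 to 94.5) of the 481 MAZ-bound and 85.4% (85.0 to 85.8) of the MAZ-unbound CTCF peaks of WT were called in ΔMAZ. MAZ-bound peaks were stronger, with a median fold enrichment of 19.98 against 13.2. In the weakest group 54.2% (41.7 to 66.3) of 59 MAZ-bound and 51.4% (50.1 to 52.8) of unbound peaks were called in ΔMAZ. In the second weakest they were 84.7% (73.5 to 91.8) of 59 and 80.0% (78.9 to 81.1), and in the 3 stronger groups every one of 57, 94 and 212 MAZ-bound peaks was called. In those 3 groups 96.5%, 99.6% and 100% of unbound peaks were called too, which leaves little room for a difference. The comparison thus rests mainly on the 59 MAZ-bound peaks in each of the 2 weaker groups. No difference by MAZ was therefore detectable at like strength, and pooled over the strength groups the odds ratio (Mantel-Haenszel) was 1.32 (0.878 to 1.99). A reciprocal overlap of 50% with the MAZ peak lowered the MAZ share to 0.314% of WT-only and 1.13% of shared peaks.

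Of the 5 strongest WT-only peaks with MAZ 2 held the CTCF core, and all 5 lay within 1 kb of a TSS. They were at Dnajc7, a co-chaperone gene (chr11:100619654-100619953, 355 bp from the TSS, CTCF pileup 17), and at Rapgef3, which encodes the cyclic AMP sensor Epac1 (126 bp, pileup 14). The others were at Tbx3, a transcription factor gene of naive pluripotency (65 bp), at Atxn2l (92 bp) and at Mmaa, which serves cobalamin metabolism (135 bp), each with a pileup of 12. RAD21 was called in both lines at Tbx3, with pileups of 19 and 26, and at Mmaa, with 22 and 22. No RAD21 peak overlapped the other 3. The 5 strongest ΔMAZ-only peaks with MAZ in WT, chosen after values were seen, included the TSS regions of the chromatin remodeller gene Ep400 (chr5:110770526-110770808, pileup 20) and of Hnrnpa2b1 (chr6:51469905-51470186, pileup 14). Of these 5 peaks 4 lay within 1 kb of a TSS and 0 held the core.

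At shared sites CTCF signal was compared site by site. For the 22465 pairs in which 1 WT peak met 1 ΔMAZ peak, the log2 ratio of fold enrichment was centred on the median of all pairs, which removes a shift of −0.07, so changes are relative to the typical site. Sites at least 2-fold higher in ΔMAZ numbered 344 (1.53%) and sites at least 2-fold lower numbered 524 (2.33%). Each is a single pair of values. The SD of the pileup ratio was 0.50 on the log2 scale, and counting error of the pileups alone gives 0.48. When pairs were grouped by mean strength, the observed and counting SDs were 0.33 and 0.31 in the strongest group and 0.60 and 0.53 in the second weakest. The observed SD exceeded the counting SD in all groups but the weakest, where it was 0.55 against 0.65. Of the pairs whose −log10 q reached 20 on both sides 0.559% passed 2-fold, and on the scale of −log10 q 16.8% of all pairs did.

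The medians differed little by MAZ at the site. The median centred ratio was 0.07 (0.01 to 0.11) at 443 MAZ-bound and 0.00 at 22022 MAZ-unbound sites, and 8 of the 443, 1.81%, passed 2-fold against 3.91% of the unbound ones. By strength in WT, from weakest to strongest, 3.13%, 2.04%, 3.51%, 3.23% and 0.472% of MAZ-bound and 6.10%, 3.27%, 5.51%, 4.18% and 1.37% of unbound sites passed it. The bound shares rest on 1 to 3 sites a group. Ratios climbed with mean fold enrichment, the weakest group having a median of −0.11 and the strongest 0.12. Within these groups, from weakest to strongest, MAZ-bound sites had medians of −0.11, −0.08, −0.04, −0.01 and 0.15, and unbound sites −0.12, −0.10, −0.03, 0.05 and 0.12. The unbound median lay within the interval of the MAZ-bound one in each of these groups, the strongest included (0.09 to 0.21). With groups by WT strength it did so in all but the strongest, where the MAZ-bound median was 0.05 (0.00 to 0.10) and the unbound one −0.01 (−0.03 to −0.004).

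**Figure D4:**
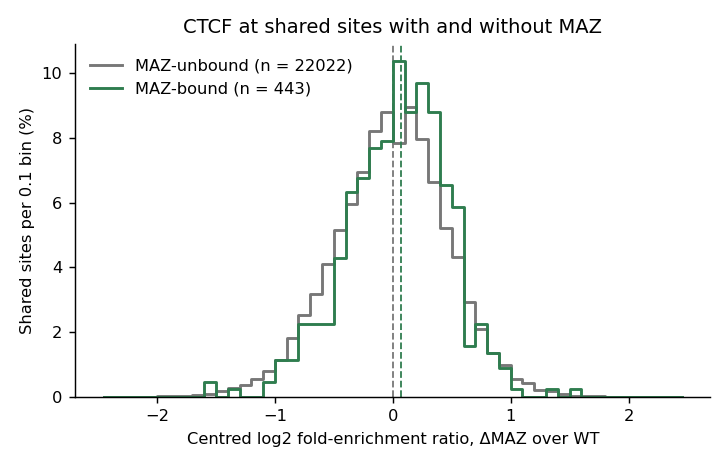
Distribution of the centred log2 fold-enrichment ratio, ΔMAZ over WT, at shared CTCF sites (x axis) as percent of sites per bin (y axis), for 443 MAZ-bound sites in green and 22022 MAZ-unbound sites in grey, with medians as dashed lines at 0.07 and 0.00. MAZ-bound sites reach from −1.6 to 1.6 and the more numerous unbound sites lie beyond that at both ends.

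The shared sites with the most extreme ratios lay in introns and between genes. In an intron of the noncoding gene Gm20388, 113847 bp from Foxf1, a mesoderm transcription factor gene, the site at chr8:120970398-120970696 went from a pileup of 40 in WT to 6 in ΔMAZ. Relative to the typical site that is a ratio of 0.165 (exact 95% interval from counting 0.0572 to 0.392), and RAD21 was called there in ΔMAZ alone, with a pileup of 14. Other low ratios were found 626 bp from Tmem87b (pileups 27 and 7), in an intron of Rtn1 (34 and 8), 13205 bp from Ssh3 (23 and 7) and 6668 bp from Cbx8, a Polycomb gene (42 and 9). At the Cbx8 site RAD21 had a pileup of 15 in WT and 37 in ΔMAZ, opposite in direction to CTCF. The highest ratio was in an intron of Gm14616, 99005 bp from the endothelin gene Edn3 (chr2:174859705-174859949), with pileups of 11 in WT and 40 in ΔMAZ, a ratio of 4.00 (2.01 to 8.64). The next were in Igsf21 (7 and 22), near 1700016H13Rik (10 and 25), near Gcm1 (9 and 29) and near Txlng on chromosome X (13 and 41). No MAZ peak of WT overlapped any of these 10 sites. They are the extremes of 18049 eligible pairs and are given as a description.

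Across sites the CTCF and RAD21 ratios were weakly related. Over 15105 sites with both, Pearson's r was 0.147 and Spearman's rho 0.145, sites of the same libraries that share depth and strength. Where CTCF was at least 2-fold lower in ΔMAZ, the median RAD21 ratio was −0.22 (−0.29 to −0.14, 247 sites), and where it was at least 2-fold higher the median was 0.12 (0.00 to 0.17, 219 sites).

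The classes differed in DNA sequence. The CTCF core was found in the summit window of 65.0% (63.4 to 66.5) of WT-only, 81.6% (81.1 to 82.1) of shared and 45.6% (43.9 to 47.3) of ΔMAZ-only peaks, against 2.59%, 2.95% and 2.95% of windows of the same length 500 bp to the side. Exact matches made up 6.31%, 17.3% and 3.78%. At a −log10 q of 5 to 10, the core was at 65.2% of WT-only and 69.2% of shared peaks of the WT list, and at 59.7% (56.9 to 62.4) of ΔMAZ-only and 71.5% (69.9 to 73.1) of shared peaks of the ΔMAZ list. Below 5 it was at 47.8% of 644 WT-only and 56.1% of shared peaks of the WT list, and at 32.02% of 1880 ΔMAZ-only and 63.0% of shared peaks of the ΔMAZ list. The ΔMAZ list reached down to a −log10 q of 1.44 and the WT list to 1.84. The MAZ core, GGGAGGG on either strand, was no more frequent at summits (2.04% of WT-only, 2.503% of shared and 2.34% of ΔMAZ-only) than beside them (3.72%, 4.34% and 3.52%).

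Repeats were more frequent at list-specific than at shared sites, for ΔMAZ-only peaks not at like strength. Soft-masked sequence, that is annotated repeats, made up most of the window at 34.9% (33.4 to 36.4) of WT-only, 19.8% (19.3 to 20.3) of shared and 30.0% (28.5 to 31.6) of ΔMAZ-only summits, and at 21.9%, 20.7% and 21.3% of the side windows. In the second weakest strength group of the WT list the shares were 35.2% (32.3 to 38.1) of WT-only and 25.5% (24.2 to 26.8) of shared summits. In the weakest group of that list, with most of the WT-only peaks, they were 35.3% (33.4 to 37.1) and 31.8% (30.1 to 33.6). The gap was smaller there and the intervals overlapped. In the second weakest group of the ΔMAZ list they were 29.5% (26.5 to 32.7) of ΔMAZ-only and 27.6% (26.3 to 29.0) of shared summits. In its weakest group, with most of the ΔMAZ-only peaks, they were 30.0% (28.3 to 31.9) and 31.9% (30.2 to 33.7). Pooled over the strength groups, the odds ratio of shared to list-specific sites for repeats was 0.753 (0.691 to 0.821) in the WT list and 0.9896 (0.902 to 1.09) in the ΔMAZ list. Reads in repeats can map to more than 1 place, and the part of mapping in these shares was not tested. Mean GC content was 48.5% in WT-only, 51.7% in shared and 47.8% in ΔMAZ-only windows, with SDs of 8.69, 8.04 and 9.79.

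WT-only sites lay in introns somewhat more often than the other classes. Introns held 51.9% (50.3 to 53.5) of WT-only, 46.6% (45.9 to 47.2) of shared and 47.4% (45.8 to 49.1) of ΔMAZ-only summits, and 41.6%, 46.4% and 45.6% were intergenic. A TSS lay within 1 kb of 9.38% (8.49 to 10.3), 11.2% (10.8 to 11.6) and 9.04% (8.13 to 10.0). Coding exons held 2.54%, 2.12% and 2.69%.

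CTCF peaks that remained after auxin lay for the most part at shared sites. CTCF peaks called after 2 days of auxin in the parental line overlapped 10.3% (9.92 to 10.7) of shared sites, 3 of 3817 WT-only sites, 0.0786%, and 13 of 3463 ΔMAZ-only sites, 0.375%. Those called after auxin in the Maz knockout overlapped 11.2% of shared sites, 3 WT-only sites and 11 ΔMAZ-only sites, 0.318%. In the weakest strength group the parental auxin list overlapped 0.0781% (0.0214 to 0.284) of WT-only and 1.44% (1.05 to 1.956) of shared peaks of the WT list, and 0.316% (0.160 to 0.623) of ΔMAZ-only and 1.23% (0.878 to 1.72) of shared peaks of the ΔMAZ list.

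In the Hox clusters the CTCF peaks of WT were also called in ΔMAZ. Of the 24 WT peaks in the 4 clusters, each taken with 5 kb on both sides, all 24 were shared, beside 85.5% of the whole list, with centred ratios from −0.54 to 0.78. Of the 22 WT peaks within 10 kb of Hox genes 0 were WT-only, and the Wilson upper limit of that share, 14.9%, includes the 14.5% of the whole list. With 10 kb around the Hox genes 1 further shared site came in that passed 2-fold, near Hoxa13 (chr6:52270594-52270887), with pileups of 9 in WT and 22 in ΔMAZ and a centred log2 ratio of 1.31. The site 90 bp from the Hoxa5 TSS (chr6:52204460-52204924) had a fold enrichment of 35.7 in WT and 23.4 in ΔMAZ, and the site in Hoxa7 (chr6:52221655-52222014) one of 41.7 and 54.0. RAD21 was called at both sites in both lines, with a fold enrichment of 27.0 and 29.9 at Hoxa5 and of 38.8 and 36.7 at Hoxa7. A MAZ peak of WT overlapped the Hoxa7 site and not the Hoxa5 site. At HoxC, the site 230 bp from Hoxc10 had 43.9 and 32.5, and at HoxD the site in Hoxd3 had 13.8 and 22.6. In addition, 6 of the 30 ΔMAZ peaks there (20%, 9.51 to 37.3) were ΔMAZ-only, 3 of them in HoxA and 1 in each other cluster, beside 13.3% of the whole list. These 6 were weak, with pileups of 6 to 13, and 0 of them held the CTCF core, which 45.6% of all ΔMAZ-only peaks and 38.5% of those in the weakest group held. A count of 0 in 6 says little at these shares. RAD21 was called in both lines at the 1 in HoxD, 213 bp from Hoxd10, with pileups of 29 and 34. In HoxA, the ΔMAZ-only peak at chr6:52206074-52206233 overlapped a CTCF peak of the parental line after auxin (fold enrichment 6.44). It had RAD21 in ΔMAZ alone, with a pileup of 14. The ΔMAZ-only peak at chr6:52212759-52212959 overlapped a CTCF peak of the Maz knockout after auxin (7.34). The strongest of the 6 lay 4433 bp from Hoxb13 (chr11:96198615-96198833, fold enrichment 9.69).

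At genes of pluripotency and of genome architecture the shares of list-specific peaks were within counting error of the 14.5% and 13.3% of the whole lists, and at imprinted genes the WT-only share lay at the edge of it. Of the WT peaks within 10 kb of 24 pluripotency genes, 6 of 28 were WT-only (21.4%, 10.2 to 39.5), and of the ΔMAZ peaks 6 of 28 were ΔMAZ-only. At 22 cohesin and insulator genes these were 7 of 37 (18.9%, 9.48 to 34.2) and 3 of 33, at 23 imprinted genes 8 of 29 (27.6%, 14.7 to 45.7, just above 14.5%) and 4 of 25, and at 18 genes known for domain boundaries or distant enhancers 2 of 14 and 1 of 13. The 22 genes did not count evenly, as Ctcf alone held 10 of the 37 and 11 of the 33 (1 WT-only, 2 ΔMAZ-only). Most of these peaks at Ctcf overlapped a CTCF peak called after auxin in the parental line. A single list-specific peak near the genes of these lists was stronger than the median of its peak list, a WT-only peak with a pileup of 24 in an intron of Plagl1, an imprinted zinc finger gene (chr10:13071068-13071351). RAD21 was called there with a pileup of 28 in WT and 21 in ΔMAZ. At Sox2, a core pluripotency factor, both sites were shared, with a fold enrichment of 24.4 in WT and 28.4 in ΔMAZ at 1 and of 14.8 and 17.8 at the other, the printed window. The site 12573 bp from Nanog had 30.5 and 28.4. A shared site near the germline and naive state gene Dppa3 (chr6:122633435-122633731) passed 2-fold, with pileups of 13 in WT and 30 in ΔMAZ and a centred log2 ratio of 1.33, the only one of 22 pairs at pluripotency genes to do so. Near Plagl1 a second site, shared (chr10:13087263-13087566), was past 2-fold in the other direction, with pileups of 21 and 7 and a ratio of −1.26, the only one of 21 pairs at imprinted genes. Over all 22465 pairs 3.86% passed 2-fold in 1 direction or the other, so 1 of 22 and 1 of 21 are near that share. These sites and the one near Hoxa13 were picked after their values were seen. At the Maz gene itself (chr7:127022130-127027037), a weak WT-only peak lay in an intron (chr7:127023194-127023383, pileup 10), and a peak in a coding exon was shared, with pileups of 9 and 11.

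In a few bins along the genome the medians of both antibodies were displaced in the same direction. Chromosomes and bins of 10 Mb were examined after the values had been seen. On chromosome 14 the median centred CTCF ratio was 0.12 (0.07 to 0.16, 796 pairs) and 16.9% of ΔMAZ peaks were ΔMAZ-only, close to the 16.7% of chromosome 12, whose CTCF median was −0.04. On chromosome X 22.1% were ΔMAZ-only, against 13.3% over all, and the medians were 0.07 (−0.01 to 0.12) for CTCF and 0.02 (−0.06 to 0.11) for RAD21. RAD21 on chromosome 14 had a median of 0.07 (0.00 to 0.11). On chromosome X, the bins from 150 to 160 Mb and from 160 to 170 Mb had CTCF medians of 0.30 (50 pairs) and 0.46 (48 pairs) and RAD21 medians of 0.38 and 0.41. In these bins 26 of 76 and 26 of 74 ΔMAZ peaks were ΔMAZ-only, 34.2% and 35.1%. Such a share was also seen without a joint shift, as on chromosome 16 from 70 to 80 Mb, where 11 of 32 ΔMAZ peaks, 34.4%, were ΔMAZ-only and the medians were 0.01 for CTCF and −0.30 for RAD21. On chromosome 14 the bins from 50 to 60 Mb and from 60 to 70 Mb had CTCF medians of 0.20 and 0.24 and RAD21 medians of 0.15 and 0.27. In these 4 of 238 bins both antibodies were at or above 0.15, and in 3 bins both were at or below −0.15. The latter were chromosome 6 from 60 to 70 Mb (CTCF −0.22, RAD21 −0.16), chromosome 5 from 80 to 90 Mb (−0.18 and −0.20) and chromosome X from 50 to 60 Mb (−0.16 and −0.17). The mean local background of the peaks in the 4 higher bins, ΔMAZ over WT relative to all pairs, moved by −0.03 to 0.01 on the log2 scale. Over the whole lists 40.4% of WT and 42.8% of ΔMAZ peaks had the lowest background of their list. This measure can therefore miss a change in local coverage. Over the bins r was 0.393 and rho 0.259, and without chromosomes 14 and X r was 0.202 and rho 0.205, with libraries and line shared by all points. Without these chromosomes 85.4% of WT and 87.1% of ΔMAZ peaks were called in the other list. What displaced these bins was not tested, and with 1 knockout clone the clone and the loss of MAZ cannot be told apart.

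**Figure D5:**
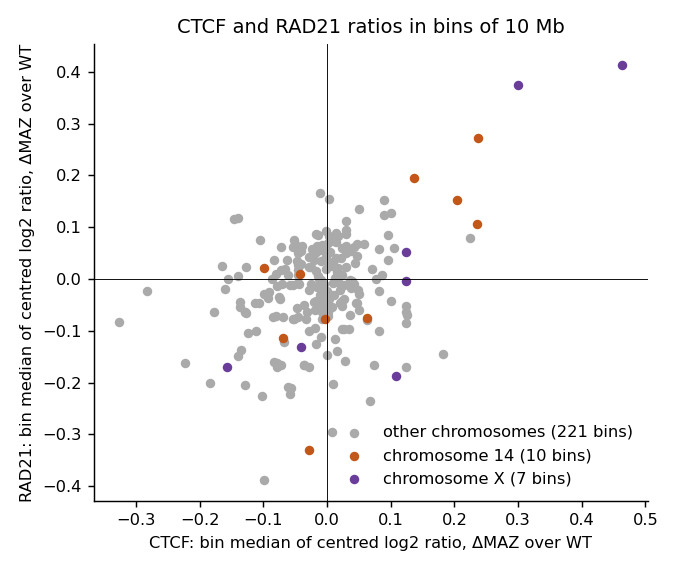
Median centred log2 ratio, ΔMAZ over WT, of CTCF (x axis) and of RAD21 (y axis) in bins of 10 Mb with at least 20 sites for each antibody, with 1 point per bin, chromosome 14 in orange, chromosome X in purple and the 221 other bins in grey. The far upper right points are the bins of chromosome X with CTCF medians of 0.30 and 0.46.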

How the data were processed

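ChIP-seq peak lists of CTCF without auxin in WT and ΔMAZ cells were compared, with lists of MAZ and RAD21 and of CTCF after auxin as further readouts. The authors mapped reads to mm10 with Bowtie 2, filtered them and removed PCR duplicates with SAMtools and called narrow peaks per library with MACS. Drosophila chromatin was added as a spike-in. Whether an input was used is not given in the sources used here. Per the deposited lists, the fold enrichment is a ratio of pileup to local background with a pseudocount of 1, and −log10 p and −log10 q are given for each peak. The whole-number score that the authors deposited was not used.

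Here, pileup and background were solved for each peak from its fold enrichment and its p-value, and a whole pileup reproduced both within 0.001 for all 26394 and 26053 peaks, as unscaled fragments would give. For 3 and 11 peaks a second whole number did so too, and the better one was kept. Read totals are not in the lists, so depth is known only relatively. Overlaps, in Python 3.11.15 with pandas 2.3.3, SciPy 1.17.1 and statsmodels 0.14.6, were checked against bedtools 2.31.1 on simulated data. Gene positions came from GENCODE vM21 and sequences from GRCm38. The 2 peaks of each list on the mitochondrial genome were left out of sequence counts.

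Regions named are the 10 strongest peaks of each class with no peak of the other list within 500 bp and none of the knockout MAZ lists, the 5 strongest WT-only peaks with MAZ, the 5 shared sites of highest and of lowest ratio among those with a fold enrichment of at least 10 in 1 list, and list-specific peaks above the median within 10 kb of a listed gene. Ties were kept in list order, and 1 ΔMAZ-only region that the rule names is not reported here. Members and gene lists were chosen with earlier results of these data known. Overlap rules, q limits, list lengths, TSS distances and other measures of signal were varied.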

Additional observations from a re-analysis of the deposited data

How the results depend on the processing

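Of 65 alternatives to 14 results, 33 stayed within the counting interval of the value reported and 32 left it. At a −log10 q of 5 or more RAD21 of ΔMAZ was called more often at ΔMAZ-only (28.4%) than at WT-only peaks (20.5%), while over all peaks these shares had overlapping intervals. RAD21 of WT was called less often at ΔMAZ-only peaks over all peaks, and at that limit the shares were 28.3% (ΔMAZ-only) and 27.1% (WT-only). For the shares of WT and of ΔMAZ peaks called in the other list, a reciprocal overlap of 50% gave 84.0% and 85.1%, a gap of up to 500 bp 86.0% and 87.5%, and summits within 100 bp 84.6% and 85.8%. With a −log10 q limit of 5 on both sides they were 83.2% and 92.1%, with that limit in the query list only 87.5% and 93.1%, and with equal list lengths 86.2% and 86.3%. Among strong WT and ΔMAZ peaks a reciprocal overlap of 50% gave 99.3% and 99.3%, and summits within 100 bp 99.7% and 99.8%.

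A reciprocal overlap of 50% with the partner peak gave MAZ shares of 0.314% (WT-only) and 1.13% (shared). It gave RAD21 shares, WT and then ΔMAZ, of 23.2% and 17.4% (WT-only) and of 16.9% and 16.1% (ΔMAZ-only). The MAZ list of ΔCTCF, an alternative added after the data were seen, gave 1.497% of shared sites. Within 2.5 kb of a TSS were 17.5% of WT-only and 16.7% of ΔMAZ-only peaks. Pairs past 2-fold were 16.8% by −log10 q, 0.559% among pairs with a −log10 q of at least 20, and 4.97% by pileup. The MAZ-bound minus unbound median was between 0.02 and 0.10 in every setting tried.

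No paired analysis was made because CTCF had a single peak list in each line. The further CTCF library of each line was not analysed, so no replicate was compared or left out. With 1 library a side, differences between libraries, clones and genotypes cannot be told apart, and list-specific sites rest on few fragments. The lists hold no read totals, and a site without a call has no level here.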
